A study of Mus musculus with 3 samples.

Results

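The 10 genes described here are Hbb-bs and Hba-a2, which encode adult globin chains, Car2, which encodes carbonic anhydrase 2, the transcriptional regulators Gata1, Gata2, Tal1, Lmo2, Gfi1b and Zfpm1, and Kit, the receptor for stem cell factor. They were taken by gene symbol from the 17796 genes of the deposited expression table, and all 10 were found. They had been chosen by their levels (CPM, defined below) in these same libraries, so their differences between libraries are given as a description, without a test. Spleen T cells of C57BL/6 mice were cultured for 3 days on antibodies against CD3 (2 ug/ml) and CD28 (5 ug/ml) with interleukin 2 at 100 IU/ml, and polyadenylated RNA was sequenced. The young library came from mice aged 2 months, labelled vehicle. The vehicle library came from aged mice, stated to be 24 months old, that received vehicle 3 times a week for 2 months. The fumarate library came from aged mice of the same description that received fumarate at 10 mg/kg on that schedule. Each group had 1 library, and whether cells of several mice were pooled is not stated, so the differences below were measured without replicates.

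GATA factors bind DNA through zinc fingers, and Gata1 is needed for red cells, megakaryocytes, eosinophils and mast cells, whereas Gata2 acts in blood stem cells, early progenitors, mast cells and basophils. Tal1, a basic helix-loop-helix protein, joins GATA factors on DNA through the bridging protein encoded by Lmo2, and Zfpm1 encodes the GATA cofactor called friend of GATA. Gfi1b encodes a zinc finger repressor of red cell and platelet precursors. The mouse spleen, unlike the human one, keeps some red cell and megakaryocyte production in adult life, while mature T cells carry Gata3 in place of Gata1 and Gata2.

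Levels are given in CPM, the reads of a gene per 1000000 assigned in its library. The spacing of low values put the depth at 41.0 M, 17.3 M and 13.9 M reads (M, 1000000) in the young, vehicle and fumarate libraries. Intervals are 95% intervals that cover counting error alone. Each of the 19 T cell identity genes differed by less than 2-fold between any pair of libraries, with summed levels of 5241 CPM in the young library, 4803 CPM with vehicle and 5675 CPM with fumarate, so the labelled cell type was present throughout. Markers of some other blood cells moved with the 10 genes. In the same order of libraries, the 17 megakaryocyte and platelet markers summed to 90.6, 2712 and 497 CPM. The 9 measured basophil and mast cell markers summed to 4.81, 415 and 70.3 CPM. The 12 B cell markers, at 8.61, 20.4 and 21.3 CPM, were not lower with fumarate as a sum. The part of other blood cells in the results below was not tested. In bulk RNA fewer cells of a type cannot be told apart from less RNA per cell.

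The globin genes come in near-identical copies, and the sequences are shown because they set what the globin values mean. Hbb-bs (chromosome 7, 103826534 to 103828096, minus strand, mm10) has the copy Hbb-bt on its strand, and Hba-a2 (chromosome 11, 32296489 to 32297298, plus strand) has the copy Hba-a1. In the GENCODE M21 transcripts each pair differed at 1 base of the coding sequence, C381T from Hba-a1 to Hba-a2 among 426 bases and C417T from Hbb-bs to Hbb-bt among 441 bases, counted from the first base of the start codon. The stretches that end at these positions are printed from coding positions 322 to 381 and 358 to 417, with the differing base in capitals.
Hba-a1: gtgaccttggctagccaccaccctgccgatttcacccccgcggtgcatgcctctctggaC
Hba-a2: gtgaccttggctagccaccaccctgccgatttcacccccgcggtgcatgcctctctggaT
Hbb-bs: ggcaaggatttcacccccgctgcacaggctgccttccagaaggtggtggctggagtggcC
Hbb-bt: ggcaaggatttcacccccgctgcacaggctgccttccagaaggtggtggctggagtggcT
Of all 50-base stretches of the Hba-a2 transcript, 86.9% occurred unchanged in the Hba-a1 transcript, and 65.8% of those of Hbb-bs occurred in Hbb-bt. The deposited values bear the mark of this sharing. Single globin genes mostly fell between whole numbers of reads, but in each library the copies of a pair added up to a whole number, 20, 507 and 6 reads for the alpha pair and 6, 1397 and 57 reads for the beta pair in the young, vehicle and fumarate libraries. The split of reads between copies is therefore uncertain, and the sum of a pair is the firmer value.

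The globins were high in the vehicle library and low in the others. Hbb-bs, an adult beta globin, was at 0.101 CPM in the young, 43.4 CPM in the vehicle and 1.35 CPM in the fumarate library. Its copy Hbb-bt was at 0.0453, 37.6 and 2.77 CPM in that order, so both beta genes were highest with vehicle. The beta pair summed to 0.146, 80.9 and 4.11 CPM, which made it 553-fold higher in the vehicle than in the young library (interval 253 to 1509) and 19.7-fold lower in the fumarate than in the vehicle library. Hba-a2, an adult alpha globin, stood at 0.0421 CPM in young and 15.4 CPM in vehicle cells and was listed at 0 in the fumarate library, where 3 reads would be 0.217 CPM. Hba-a1 was at 0.446, 14.0 and 0.433 CPM, so that with fumarate all reads of the alpha pair had been placed on Hba-a1. The alpha pair summed to 0.488, 29.4 and 0.433 CPM. It was 60.2-fold higher in the vehicle than in the young library (interval 38.6 to 99.4) and 67.8-fold lower in the fumarate than in the vehicle library. Between the fumarate and young libraries the alpha pair had a CPM ratio of 0.888 with an interval of 0.292 to 2.29, which includes no difference, and the beta pair one of 28.1 (interval 12.1 to 79.8). With fumarate the alpha pair thus could not be distinguished from the young level by counting, on 6 against 20 reads. The beta pair lay above its young level.

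Car2, an enzyme of red cells and several other tissues that interconverts carbon dioxide and bicarbonate (chromosome 3, 14886273 to 14900770), was at 0.927 CPM in the young, 101 CPM in the vehicle and 6.35 CPM in the fumarate library. The vehicle library stood far above the other pair of libraries, with a CPM ratio of 109 over young (interval 79.4 to 155). With fumarate Car2 was 16.0-fold lower than with vehicle and still 6.85-fold above the young level (interval 4.63 to 10.3). Car1, the neighbouring carbonic anhydrase gene and a marker of early red cell precursors, was listed at 0 in the young library but reached 17.3 CPM with vehicle against 0.866 CPM with fumarate.

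**Figure D1:**
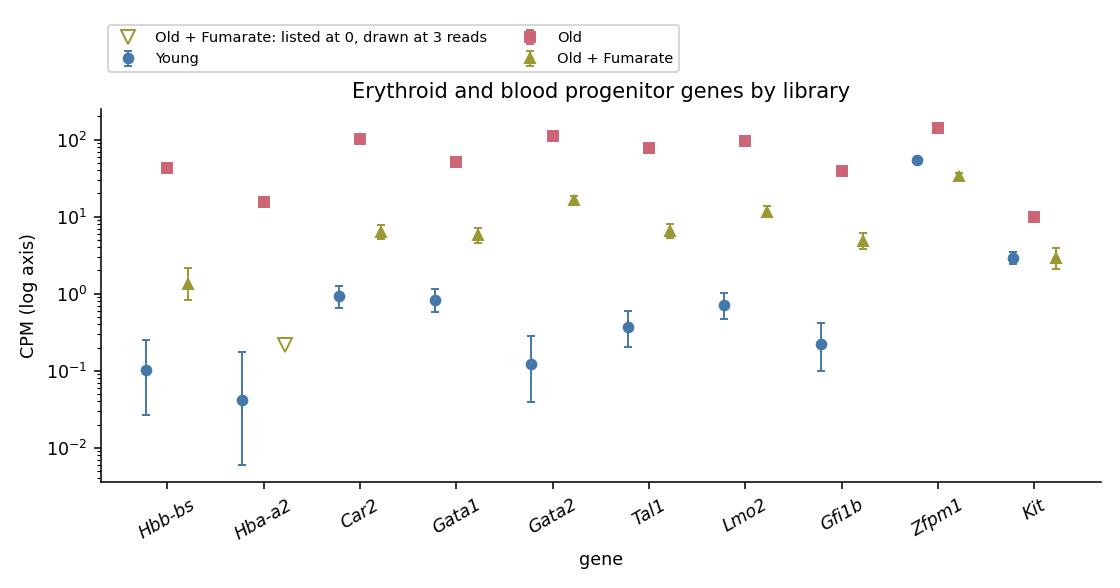
CPM of each of the 10 genes (log axis) in the young, vehicle (Old) and fumarate (Old + Fumarate) libraries, with 1 library per point and 95% counting intervals as bars; Hba-a2, listed at 0 with fumarate, is drawn as an open triangle at the worth of 3 reads. The vehicle point is the highest for all 10 genes, and Zfpm1 is the gene with a high young value, at 54.2 CPM.

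Among the GATA factors, Gata1 (chromosome X, 7959260 to 7978071) was at 0.829 CPM in the young, 51.8 CPM in the vehicle and 5.77 CPM in the fumarate library. Gata2 (chromosome 6, 88193891 to 88207032) was at 0.122, 113 and 16.2 CPM, or 5, 1954 and 225 reads. Both were lowest in the young and highest in the vehicle library, with no overlap of intervals between any pair of libraries. The vehicle over young ratio of CPM was 62.4 for Gata1 (interval 44.3 to 90.7) and 928 for Gata2 (interval 397 to 2861), so the range given by counting was wide for Gata2, which rests on 5 reads in the young library. With fumarate, Gata1 stood 6.96-fold and Gata2 133-fold above the young level (interval of the latter 56.2 to 414). Gata3, the GATA factor of T cells, was at 33.8, 75.1 and 49.2 CPM, a vehicle over young log2 ratio of CPM + 1 of 1.13.

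Tal1 (chromosome 4, 115056426 to 115071755) was at 0.366 CPM in the young, 77.6 CPM in the vehicle and 6.57 CPM in the fumarate library. Lmo2 (chromosome 2, 103957986 to 103981878) was at 0.708, 96.8 and 11.6 CPM. These partners in the same DNA-bound complex had the same order of libraries, vehicle above fumarate above young, and CPM ratios of vehicle over young of 212 (interval 128 to 380) and 137 (interval 94.95 to 205). With fumarate Tal1 was 11.8-fold and Lmo2 8.33-fold lower than with vehicle. Other genes of the complex behaved in different ways. Ldb1, the protein that joins such complexes to each other, was at 151, 191 and 175 CPM, and Tcf3, which encodes the E proteins that pair with Tal1, at 133, 96.7 and 97.7 CPM, so neither reached 2-fold. Lyl1, a close relative of Tal1, was at 1.71, 26.1 and 3.03 CPM, and Cbfa2t3, a corepressor of the Tal1 complex, at 0.293, 36.3 and 2.38 CPM.

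Gfi1b (chromosome 2, 28609450 to 28621982) was at 0.220 CPM in the young, 38.9 CPM in the vehicle and 4.84 CPM in the fumarate library. Its relative Gfi1, a repressor expressed in T cells, was at 41.9, 65.4 and 68.4 CPM and reached 2-fold in none of the comparisons. Zfpm1 (chromosome 8, 122282141 to 122337251) differed from the other regulators in its level in the young library. It was at 54.2 CPM in the young, 143 CPM in the vehicle and 33.9 CPM in the fumarate library, or 2223, 2472 and 469 reads. It was therefore 2.64-fold higher with vehicle than in the young library (interval 2.49 to 2.80). With fumarate it was below both others, with a CPM ratio over young of 0.624 (interval 0.564 to 0.690), and it was the only one of the 10 genes whose interval lay below the young level.

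Kit (chromosome 5, 75574916 to 75656722), the receptor of blood stem cells, progenitors and mast cells, was at 2.90 CPM in the young, 9.85 CPM in the vehicle and 2.89 CPM in the fumarate library. The young and fumarate values could not be distinguished, with a CPM ratio of 0.994 and an interval of 0.677 to 1.43, and the vehicle value was 3.39-fold above the young one (interval 2.67 to 4.32). Its ligand gene Kitl was below 1 CPM in all 3 libraries, at 0.0244, 0.753 and 0.289 CPM. Epor, the erythropoietin receptor, was at 1.54, 7.88 and 1.23 CPM, with the same shape as Kit.

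Set side by side on the log2 scale of CPM + 1, the vehicle library exceeded the young one by at least 2-fold for 10 of the 10 genes, where 8.96% of all listed genes did so and 1.71% were lower. The members' log2 ratios ran from 1.38 for Zfpm1 to 6.67 for Gata2 with a median of 5.18, beside a median of 0.04 over all genes. In fumarate over vehicle all 10 were lower by at least 2-fold with none higher, where 5.87% of all genes were lower and 0.258% higher, with a median of −2.96 beside −0.04 over all genes and a range from −4.24 for Hbb-bs to −1.48 for Kit. In fumarate over young 7 of the 10 were higher by at least 2-fold and none lower, where 3.99% of all genes were higher and 1.95% lower, with a median of 1.91 beside 0.00 over all genes. The exceptions were Hba-a2 at −0.06, Zfpm1 at −0.66 and Kit at −0.01, and Hbb-bs at 1.09 was just past the limit. The genes were grouped for these contrasts, so nothing is read from these shares, and the comparisons share libraries.

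**Figure D2:**
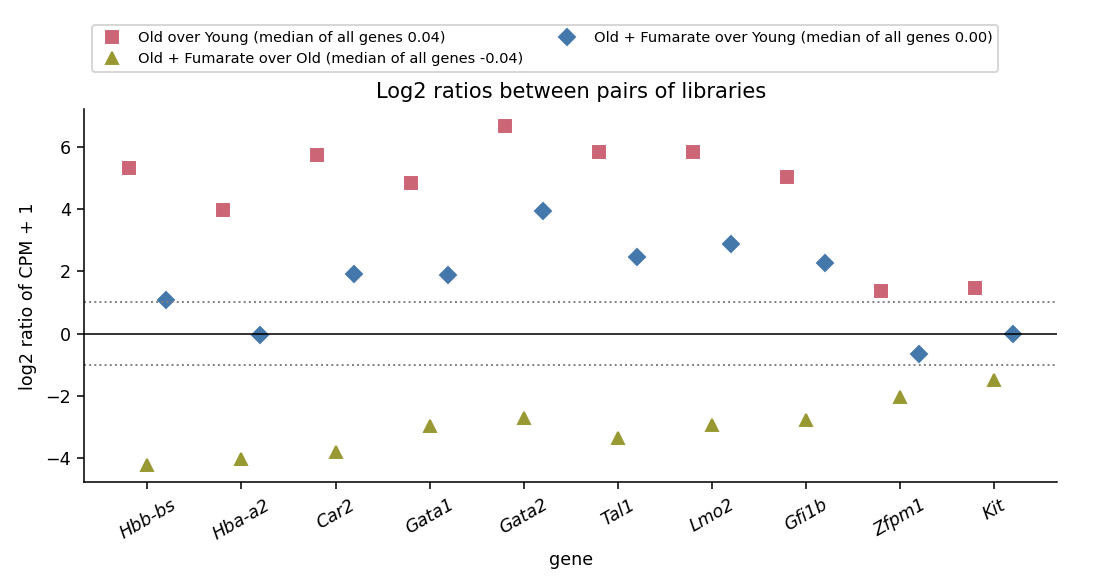
Log2 ratio of CPM + 1 for each of the 10 genes in the 3 pairs of libraries, 1 library against 1 in each, with dotted lines at 2-fold. Ratios of vehicle over young (squares) run from 1.38 to 6.67, those of fumarate over vehicle (triangles) from −4.24 to −1.48, and those of fumarate over young (diamonds) from −0.66 to 3.94.

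The share of the vehicle level that was present with fumarate differed among the 10 genes by more than counting error. It was lowest for the globins, at 1.47% of the vehicle CPM for the alpha pair (interval 0.539 to 3.23) and 5.08% for the beta pair (interval 3.83 to 6.63). Car2 followed with 6.26% (interval 5.00 to 7.76) and Tal1 with 8.46% (interval 6.77 to 10.5). Gata1 at 11.2%, Lmo2 at 12.0%, Gfi1b at 12.4% and Gata2 at 14.3% formed a group whose intervals overlapped, from 8.76% at the lowest bound of Gata1 to 16.5% at the highest of Gata2. Zfpm1 at 23.6% (interval 21.4 to 26.1) and Kit at 29.3% (interval 20.2 to 41.6) were highest and overlapped each other. Neighbours in this order mostly overlapped, but the beta globin pair, Lmo2 and Zfpm1 were separated from each other by their intervals. The median over all listed genes with a value in the vehicle library was 96.9%. The 17 megakaryocyte and platelet markers had a median of 16.8%, with Thbs1 lowest at 8.87% and Selp highest at 75.6%, and the 9 basophil and mast cell markers one of 20.1%, with Slc18a2 lowest at 7.79% and Mitf highest at 75.7%. Thbs1 encodes thrombospondin, a platelet granule protein, Slc18a2 a monoamine transporter, and Mitf a factor of mast cells.

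**Figure D3:**
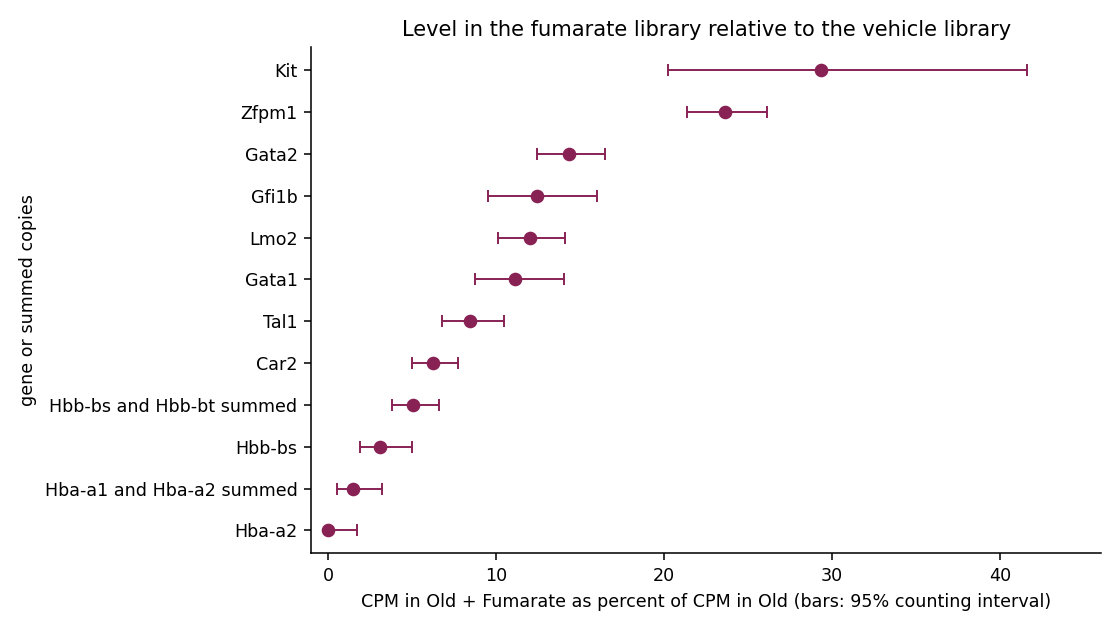
CPM in the fumarate library as a percent of CPM in the vehicle library for each of the 10 genes and for the summed globin pairs, with 95% counting intervals as bars and 1 library per group. The values rise from the globins over Car2 and the regulators to Zfpm1 at 23.6% and Kit at 29.3%.

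Levels of different genes were compared per kilobase of annotated exon. For the globins the summed pair, over the mean exon length of its copies, is the firmer value. The beta pair was at 110 CPM per kilobase with vehicle (interval 104 to 116), above each of the other genes, and the alpha pair at 39.7 (interval 36.3 to 43.3). Taken as a single copy, Hbb-bs was at 56.5 CPM per kilobase with vehicle, above Lmo2 at 44.7, Car2 at 41.9 and Zfpm1 at 40.9 CPM per kilobase, of which neighbours in that order overlapped. Hba-a2, Gfi1b, Gata1 and Gata2 followed between 21.0 and 23.1 CPM per kilobase with overlapping intervals for neighbours in that order, Tal1 stood at 17.7 and Kit was last at 1.11 CPM per kilobase. With fumarate the highest was Zfpm1 at 9.66 CPM per kilobase, the beta pair at 5.59 (interval 4.24 to 7.25) and Lmo2 at 5.37 (interval 4.57 to 6.26) overlapped, and the alpha pair was at 0.586 CPM per kilobase. In the young library Zfpm1 was at 15.5 CPM per kilobase and the other 9 genes at 0.383 CPM per kilobase or less, with the alpha pair at 0.660 and the beta pair at 0.199. Together the 10 genes made up 60.5 CPM in the young library, 692 CPM with vehicle and 89.5 CPM with fumarate.

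The name erythroid was checked against genes of the red cell programme. Over all listed genes, 8.96% were at least 2-fold higher and 1.71% lower in vehicle over young. In fumarate over vehicle these shares were 0.258% and 5.87%, and in fumarate over young 3.99% and 1.95%. Of 25 genes for red cell membrane proteins and enzymes 21 were measured, and 13 of these were at least 2-fold higher with vehicle than in young cells, none lower and 8 within 2-fold (median log2 ratio 1.60, or 1.53 with genes at 0 set to 3 reads). In fumarate over vehicle 14 of the 21 were lower and none higher (median −1.18), and in fumarate over young 1 was higher and none lower. Aqp1, the red cell water channel, was at 0.0976, 18.4 and 0.650 CPM, Blvrb, a biliverdin reductase, at 2.37, 33.7 and 4.40 CPM, and Tfr2, a transferrin receptor of red cell precursors, at 0.293, 8.80 and 0.722 CPM. Klf1, the red cell factor that drives beta globin, was at 0.342, 6.08 and 0.650 CPM. Alas2, the red cell enzyme that starts haem synthesis, was at 0.0302 CPM in the young library and 0.614 CPM with vehicle and was listed at 0 with fumarate. Slc4a1, Epb42, Rhd, Trim10 and Ahsp were looked for and are not among the 17796 listed genes, so no level can be given for them. The lowest summed value of a listed gene was 10.0 reads. Tfrc, the transferrin receptor of all dividing cells, was at 921, 730 and 876 CPM.

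Most haem synthesis genes, which most cells express, moved little. Of the 13 genes of this list, 11 had a mean of at least 1 CPM. Alas2, given above, is in the list below that mean, where the added 1 CPM held its log2 ratio at 0.65. Its plain CPM ratio of vehicle over young was 20.3 (interval 3.80 to 1124), on 11 reads against 1. Of 13 genes 2 were at least 2-fold higher with vehicle than in young cells and none lower (median 0.20), and none passed 2-fold in either direction in fumarate over vehicle (median −0.23) or in fumarate over young. Of all listed genes 8.96% were higher with vehicle than in young cells, so nothing is read from the count of 2. With TMM or median-of-ratios scaling the count higher with vehicle was 0. The 2 were Cpox, coproporphyrinogen oxidase, at 60.5, 126 and 92.4 CPM, and Abcb10, a mitochondrial transporter, at 13.7, 28.6 and 17.1 CPM. Alad, which joins aminolaevulinate molecules, was at 18.9, 25.8 and 23.3 CPM, and Fech, which inserts the iron, at 26.7, 31.5 and 26.7 CPM.

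Of 28 partners and relatives of the GATA and Tal1 factors, 12 were at least 2-fold higher with vehicle than in young cells and none lower (median 0.64), and 11 were lower and none higher with fumarate than with vehicle (median −0.40). In fumarate over young 4 were higher and 1 lower (median 0.25). The shares of all listed genes were 8.96% higher in vehicle over young and 5.87% lower in fumarate over vehicle. In fumarate over young 3.99% of all listed genes were higher and 1.95% lower. Nfe2, a factor of red cell and platelet precursors, was at 0.342, 73.5 and 6.64 CPM, and Spi1, the myeloid and B cell factor PU.1, at 0.171, 23.6 and 2.24 CPM. Erg was at 0.0976, 7.76 and 0.577 CPM, Bcl11a, a repressor of fetal globin genes, at 0.195, 14.0 and 0.938 CPM, Hhex at 0.464, 11.1 and 1.73 CPM, and Tcf4 at 5.81, 22.1 and 7.72 CPM. Factors that T cells also use had higher young levels: Runx1 was at 16.2, 65.1 and 12.7 CPM and Myb at 25.4, 86.8 and 69.1 CPM, so that Myb stayed high with fumarate whereas Runx1 was below its young value.

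Of 24 genes of KIT and erythropoietin receptor signalling, 6 were at least 2-fold higher with vehicle than in young cells and none lower (median 0.36), and 5 were lower with fumarate than with vehicle and none higher (median −0.11). For this list and the next, 8.96% of all listed genes were higher in vehicle over young and 5.87% lower in fumarate over vehicle. In fumarate over young 3.99% of all listed genes were higher and 1.95% lower. The kinase gene Lyn was at 1.37, 36.1 and 7.15 CPM and Src at 2.42, 33.5 and 5.49 CPM. The adaptor gene Gab2 was at 4.17, 23.0 and 9.67 CPM. Of 23 markers of blood stem cells and progenitors 22 were measured, and 15 were higher and none lower with vehicle than in the young library (median 1.63, or 1.58 with genes at 0 set to 3 reads). With fumarate 12 of the 22 were lower than with vehicle and none higher (median −1.19, or −0.97 with genes at 0 set to 3 reads), and 8 were higher and 1 lower than in the young library (median 0.84). Cd34, a surface marker of progenitors, was at 0.146, 24.3 and 2.45 CPM, Muc13 at 0.317, 128 and 8.59 CPM, Angpt1, a ligand of the TIE2 receptor, at 0.0976, 40.7 and 4.26 CPM and Cd63 at 1.24, 75.6 and 9.50 CPM.

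Several of the 10 genes also serve the megakaryocyte, mast cell and basophil lineages, whose markers are given beside them. Of all listed genes 8.96% were at least 2-fold higher in vehicle over young and 5.87% lower in fumarate over vehicle. In fumarate over young 3.99% were higher. All 17 megakaryocyte and platelet markers were at least 2-fold higher with vehicle than in the young library (median 4.35), 15 were lower with fumarate than with vehicle (median −2.31) and 15 were at least 2-fold above the young level with fumarate. Thbs1, thrombospondin 1, had the highest of these ratios, at 2.34, 492 and 43.6 CPM. Pf4, platelet factor 4, was at 3.17, 468 and 51.3 CPM and Itga2b, an integrin chain of platelets, at 3.42, 416 and 45.0 CPM. Of the 9 basophil and mast cell markers, 8 were higher with vehicle than in the young library (median 4.97). The same number were lower with fumarate than with vehicle (median −2.14). On the log2 scale of CPM + 1, Mcpt8 and Cpa3 had the highest vehicle over young ratios of this list. Mcpt8, which encodes a protease of basophils, had levels of 0.122, 86.7 and 18.9 CPM. Cpa3, mast cell carboxypeptidase, stood at 0.0976, 64.1 and 14.9 CPM. By plain CPM the ratios of Prss34 and Fcer1a were higher, each resting on 1 read in the young library. Prss34, another basophil protease, was at 0.0244, 55.7 and 4.98 CPM and Fcer1a, a chain of the IgE receptor, at 0.0244, 34.2 and 4.84 CPM. Which cells carried the 10 messages was not measured.

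**Figure D4:**
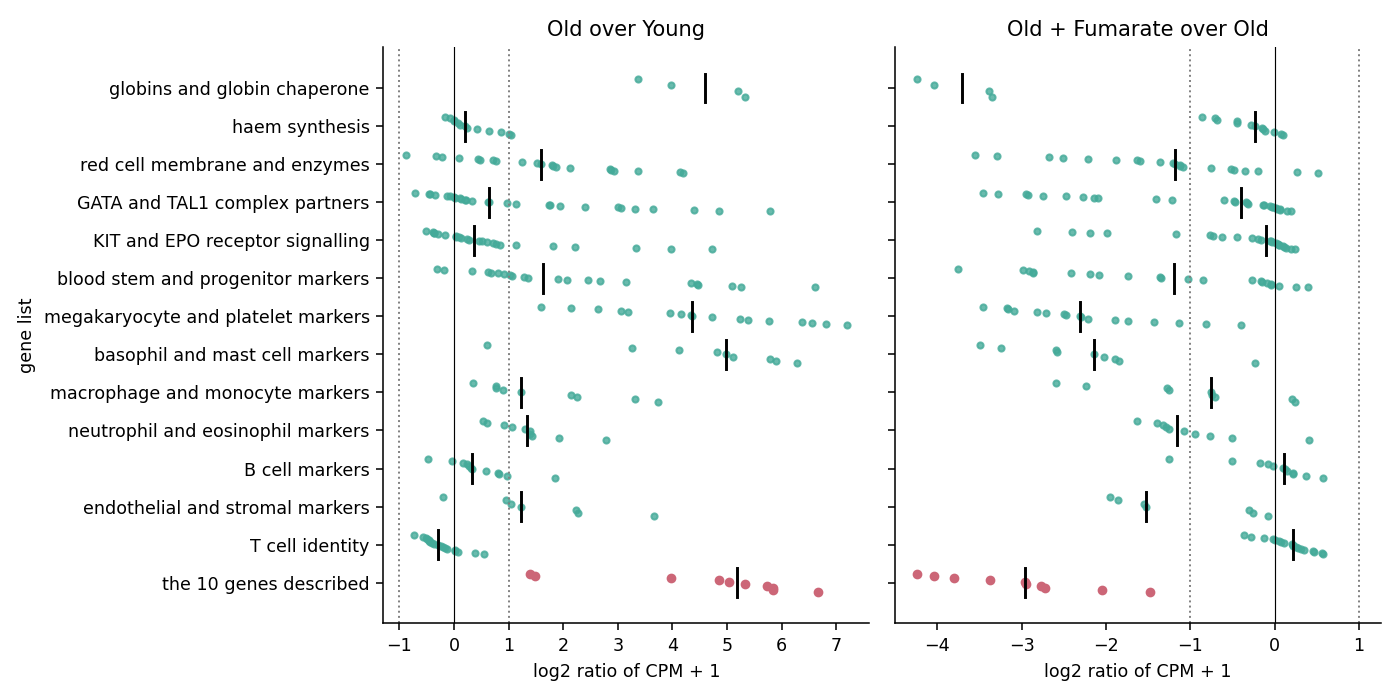
Log2 ratio of CPM + 1 for each measured gene of 13 lists (points, 1 gene each, 1 library per group) in vehicle over young (left) and fumarate over vehicle (right), with list medians as black bars and 2-fold as dotted lines. Globin, megakaryocyte, basophil and mast cell genes lie farthest from 0 beside the 10 genes described (bottom row), while haem synthesis genes lie mostly within 2-fold and all T cell identity genes do.

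The 8 genes whose profile over the 3 libraries was most like the median profile of the 10 genes, by Euclidean distance between mean-centred log2 values of CPM + 1, were Spns2, Rab38, Hbb-bt, Slc14a1, Tbx2, Col18a1, P2rx1 and Apol7c, at distances from 0.0419 to 0.248. Spns2, an exporter of sphingosine 1-phosphate, was at 0.146, 39.3 and 3.18 CPM. Slc14a1, the urea transporter of red cells, was at 2.71, 136 and 12.2 CPM. Of the 10 genes, Gata1 was closest to their median profile at 0.228, and Kit at 2.59 and Zfpm1 at 2.72 were farthest from it. With 3 libraries such a profile holds few independent values.

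The start regions were searched for letters that blood regulators are known to read, since 8 of the 10 genes had an entry among the RefSeq promoter sequences (GRCm38.p6), with 11 starts in all. In the 250 bases before a start, GATAA on either strand, the core that GATA factors bind, was present at 4 of these 11 starts, in Hbb-bs, Hba-a2, Gfi1b and Tal1, and in 22.6% of 32841 starts of all genes. The matches and 18 bases on each side are printed on the strand of the gene, with the match in capitals, for the 4 genes whose start region held it and the beta copy Hbb-bt.
Hbb-bs (chr7:103828115-103828155, minus strand): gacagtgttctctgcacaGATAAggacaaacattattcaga
Hbb-bt (chr7:103814105-103814145, minus strand): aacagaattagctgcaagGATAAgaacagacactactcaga
Hba-a2 (chr11:32296289-32296329, plus strand): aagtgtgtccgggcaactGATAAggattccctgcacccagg
Gfi1b (chr2:28622079-28622119, minus strand): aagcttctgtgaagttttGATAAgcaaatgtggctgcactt
Tal1 (chr4:115056203-115056243, plus strand): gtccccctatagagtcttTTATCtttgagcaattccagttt
The first base of the match lay 209 bases before the start in Hbb-bs, 204 in Hbb-bt, 185 in Hba-a2, 119 in Gfi1b and 205 in Tal1, where it stands on the opposite strand. The stretch of Hba-a1 was identical to that of Hba-a2 at all 41 bases, and those of Hbb-bs and Hbb-bt shared 30 of 41. The letters CACCC, read by Klf factors, were present at 9 of the 11 starts, with at least 1 start in each of the 8 genes, and in 52.0% of all starts. The Kit starts have overlapping regions and share the same match, which was counted at each. The 52.0% is a share of starts and has no like value for the count of genes. CANNTG, the E box read by Tal1 with E proteins, was found at 4 of the 11, in Gata1, Gfi1b, Hba-a2 and Hbb-bs (66.2% of all starts). CCAAT was found at 4 of the 11, in Gata2, Gfi1b, Hba-a2 and Hbb-bs (33.9%), and AAATCA, which holds the core read by Gfi1 proteins, at 1 of the 11, in Gfi1b (12.4%). All motifs were searched on both strands, and the E box reads the same on both. The searched letters could overlap each other. No match was counted as a bound site, and binding was not measured.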

How the data were processed

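The authors deposited 1 table for all 3 libraries of activated spleen T cells. Its values were deposited by the authors as CPM, scaled to a sum of 1000000 per column, although its name calls them counts. STAR, Partek and build mm10 are named per the submitters' processing notes, while their versions, like the strand setting, are not given in the sources used. No exon of the 10 genes overlaps an exon of another GENCODE M21 gene. Gene spans deposited with the table were not used as lengths. Exon lengths came from GENCODE M21. Table positions, less 1 base at the end, equalled GENCODE M21 for all genes whose position is given.

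Low values repeat at the worth of 1 read, from which depth was estimated. Within 0.02 reads, 66.3% to 70.8% of values were whole, so no count model was fitted. The lowest summed value of a listed gene was 10.0 reads, so less abundant genes are not covered. A 0 allows 3 reads (0.0732 CPM in the young library, 0.174 with vehicle, 0.217 with fumarate). Groups came from the titles. Log2 ratios of CPM + 1 with a limit of 2-fold were computed for 3 pairs of libraries over the whole table, without p-values. Adding 1 shrinks the ratios of scarce messages. Clopper-Pearson intervals of CPM ratios and Poisson intervals of levels used estimated reads, rounded, and cover counting error only, since reads are not independent molecules. The calculation was tested on simulated data.

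The 10 genes and the 13 lists were chosen with earlier results of these data known. Named besides the 10 are their globin copies, 17 partner genes, up to 4 further genes per list, and the 8 nearest profiles (highest library at least 10 CPM). The further genes had the largest absolute vehicle over young log2 ratios of CPM + 1 in their list and a mean of at least 1 CPM. Selp, Slc18a2 and Car1 are named as extremes or neighbours. Of the genes so chosen, 2 are not reported here. Alternatives were added constants of 0.1 and 5 CPM, TMM, median-of-ratios and T cell identity scaling, limits of 1.5-fold and 3-fold, a minimum mean, thinning and summed globin copies. The software was Python 3.11.15 with scipy 1.17.1, pandas 2.3.3, numpy 2.4.6 and, for plots, matplotlib 3.10.9.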

Additional observations from a re-analysis of the deposited data

How the results depend on the processing

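No paired analysis was possible because each group has 1 library. The counts of 10 genes higher in vehicle over young and 10 lower in fumarate over vehicle stayed within 1.5 times of their value under each alternative run. In fumarate over young the 7 higher became 3 with an added 5 CPM, which damps low values by construction, and the 0 lower became 1 with a limit of 1.5-fold. The median log2 ratio of the 10 genes in vehicle over young, 5.18, was 6.84 with an added 0.1 CPM and 3.26 with 5 CPM. In fumarate over vehicle, −2.96, it was −2.44 with 5 CPM, and in fumarate over young, 1.91, it was 2.75 with 0.1 CPM and 0.90 with 5 CPM. Of 240 single log2 ratios under alternatives, 201 stayed within the counting interval of the reported value and 39 moved outside it. None of the 216 whose reported ratio was past 2-fold changed sign, and 2 of the other 24 did: Kit in fumarate over young, −0.01 as reported, was 0.11 with T cell identity scaling and 0.08 when thinned to the smallest library. Scaling to the T cell identity list moved the median of all genes in vehicle over young from 0.04 to 0.32, and in fumarate over young it moved the share of higher among called genes from 67.2% to 77.2%. Depth limits the young globin, Gata2 and Gfi1b levels, which rest on under 10 reads per gene except for Hba-a1.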

Other observations

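The nearest listed protein-coding genes on each side of the 10 genes, globin copies left out, were 20 in number and were chosen by position after the data were seen. In vehicle over young 5 of them were past 2-fold above and none past 2-fold below (median 0.05), in fumarate over vehicle 5 were lower and none higher (median −0.07), and in fumarate over young none passed 2-fold. Over all listed genes 8.96% were higher and 1.71% lower in vehicle over young. In fumarate over vehicle 5.87% of all listed genes were lower and 0.258% higher. Nothing is read from counts among so few neighbours. Car1 beside Car2 was one of the 5, with the values given above. Pdzk1ip1, which lies 17.0 kb from Tal1, was at 6.20 CPM in the young, 21.5 CPM in the vehicle and 4.04 CPM in the fumarate library. Kdr, an endothelial receptor gene and the nearest listed gene on 1 side of Kit, was at 0.0244, 3.82 and 0.650 CPM. Beside the globins, Sh3pxd2b on 1 side of Hba-a2 was at 0.464, 10.9 and 1.73 CPM and Trim6, 391 kb from Hbb-bs, at 0.390, 3.59 and 0.650 CPM, which completes the 5. Genes within 2-fold included Nprl3 on the other side of Hba-a2 at 21.8, 21.4 and 26.5 CPM, Stil on the other side of Tal1 at 37.0, 29.3 and 32.3 CPM, and Hdac6 beside Gata1 at 18.5, 19.3 and 21.8 CPM.

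Marker lists of 4 further cell types had medians in vehicle over young from 0.32 for B cells to 1.34 for neutrophils and eosinophils, or 1.24 with genes at 0 set to 3 reads, beside 5.18 for the 10 genes. These are log2 ratios of CPM + 1, which the added 1 CPM holds low for scarce messages. With vehicle the neutrophil and eosinophil markers reached at most 6.37 CPM, and the 10 genes ran from 9.85 to 143 CPM. The medians therefore do not rank the lists by size of change. For the counts that follow, 8.96% of all listed genes were at least 2-fold higher in vehicle over young. With T cell identity scaling that share was 12.6%. Nothing is read from the small count for B cells. Of 10 measured neutrophil and eosinophil markers 7 reached 2-fold higher in vehicle over young (summed levels of 0.195 CPM in young cells, 18.7 CPM with vehicle and 3.68 CPM with fumarate), with Prg2, an eosinophil granule protein, at 0.0732, 6.37 and 1.37 CPM. Of 9 macrophage and monocyte markers 5 were higher (24.99, 77.8 and 65.8 CPM), and they differed in fumarate over vehicle. Ccr2, a chemokine receptor of monocytes that activated T cells also express, had the highest vehicle over young log2 ratio of CPM + 1 in the list. By plain CPM the ratio of Lyz2 was higher. Ccr2 was at 0.957, 25.1 and 29.8 CPM, so it was not lower with fumarate. Lyz2, which encodes lysozyme, was at 0.0488, 9.38 and 0.722 CPM, and Csf1r, the macrophage growth factor receptor, was at 3.74 CPM with vehicle and listed at 0 in the other libraries. Of 12 B cell markers 1 was higher, or 3 with libraries scaled to the T cell identity list (8.61, 20.4 and 21.3 CPM), and of 7 endothelial and stromal markers 5 were (30.5, 119 and 61.1 CPM). Lum, which encodes lumican, was at 3.49, 55.8 and 46.5 CPM and so kept 83.3% of its vehicle level with fumarate.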
